A study of Mus musculus with 99 samples.

Results

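The stereocilia bundle and cuticular plate genes are 49 genes, picked by name from the 55291 gene symbols of the count table, that build or attach the actin-based hair bundle of cochlear hair cells. They cover 8 roles: the actin core, its crosslinkers and rootlet, the tips, the Usher and ankle link proteins, the links to the tectorial membrane, the taper and membrane attachment, bundle polarity, and a last group of cuticular plate, junction and other bundle genes. Myosins and the transduction channel complex were not included. Their levels were compared between 32 wild-type outer hair cells (OHCs) of postnatal day 30, from C57BL/6 mice of genotype Slc26a5-CreER/+; Ai9/+, and 67 converted inner hair cells (cIHCs) of postnatal day 42, from C57BL/6 mice of genotype Slc26a5-CreER/+; Rosa26Tbx2/+. The cIHCs are former OHCs made to express Tbx2, a T-box transcription factor that inner hair cells (IHCs) need for their identity. Both groups carry a Cre recombinase tied to Slc26a5, the gene of the OHC motor protein prestin, and both were picked by hand for tdTomato fluorescence and amplified with the Smart-Seq HT kit; the labels name the Ai9 reporter for OHCs only. Age and genotype changed together between the groups and cannot be told apart. No animal is named for any cell, so each group counts as 1 sample and no test between the groups was possible. Every interval below covers the counting error of reads only. No endogenous IHC group was analysed here, so the values show how cIHCs differ from OHCs and not how near they come to IHCs.

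A hair bundle is a staircase of stereocilia, each a rod of parallel actin filaments held together by crosslinkers and narrowed at its base into a rootlet that is anchored in the cuticular plate, an actin mesh under the cell's apical surface. Proteins at the tips set the length of each rod, links between the rods hold the bundle together, and a polarity complex sets its position on the cell. OHC bundles have a V shape with tips embedded in the tectorial membrane, while IHC bundles stand in a flatter row of thicker stereocilia whose tips are not embedded.

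The cells held 5656512 to 9287413 counts each in OHCs and 4677682 to 13792672 in cIHCs. Reads were found for a median of 6068.5 genes per OHC and 8546 genes per cIHC, which bears on every share of cells with reads given here. The labels were checked on defining genes. The motor protein gene Slc26a5 had 2080 CPM (counts scaled to a total of 1000000) in pooled OHCs and 0.303 in pooled cIHCs, and Tbx2 had 0.012 and 730.7 CPM. Otof, the synaptic calcium sensor of hair cells, had 542.8 and 2956 CPM. Genes of the Y chromosome reached 10 CPM in 24 OHCs and 12 cIHCs, and Xist in 4 OHCs and 55 cIHCs, so the sexes were mixed in different proportions. Ratios within cells of each kind are given beside some of the genes whose 2-fold call or direction they change. A gene given without them need not be steady between these cells.

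Of the 49 genes, 41 had at least 10 pooled CPM (computed from the counts and totals summed over the cells of a group) in either group or both. Of these 41, 10 were at least 2-fold higher in cIHCs, 24.4% of them, beside 26.3% of all 10041 genes at that level. At least 2-fold lower were 4, or 9.76%, beside 14.3% of all genes. The remaining 27 lay within 2-fold, of which 14 did so in all 11 other settings and 13 passed it in 1 or more. With a TMM scaling factor, which corrects the totals for differences in composition, the counts were 8 higher and 6 lower among 40 genes. The median log2 ratio of cIHC over OHC was 0.05 for the 41 genes and 0.25 for all 10041. Together the 49 genes took 1.36% of all counts in OHCs and 1.25% in cIHCs. Their summed level per cell ran from 8249 CPM over a median of 13373 to 17119 in OHCs, and from 6391 over 12500.3 to 17001 in cIHCs. The 2 groups overlapped over nearly their whole ranges in this sum, while single genes differed by up to 17.1-fold.

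**Figure D1:**
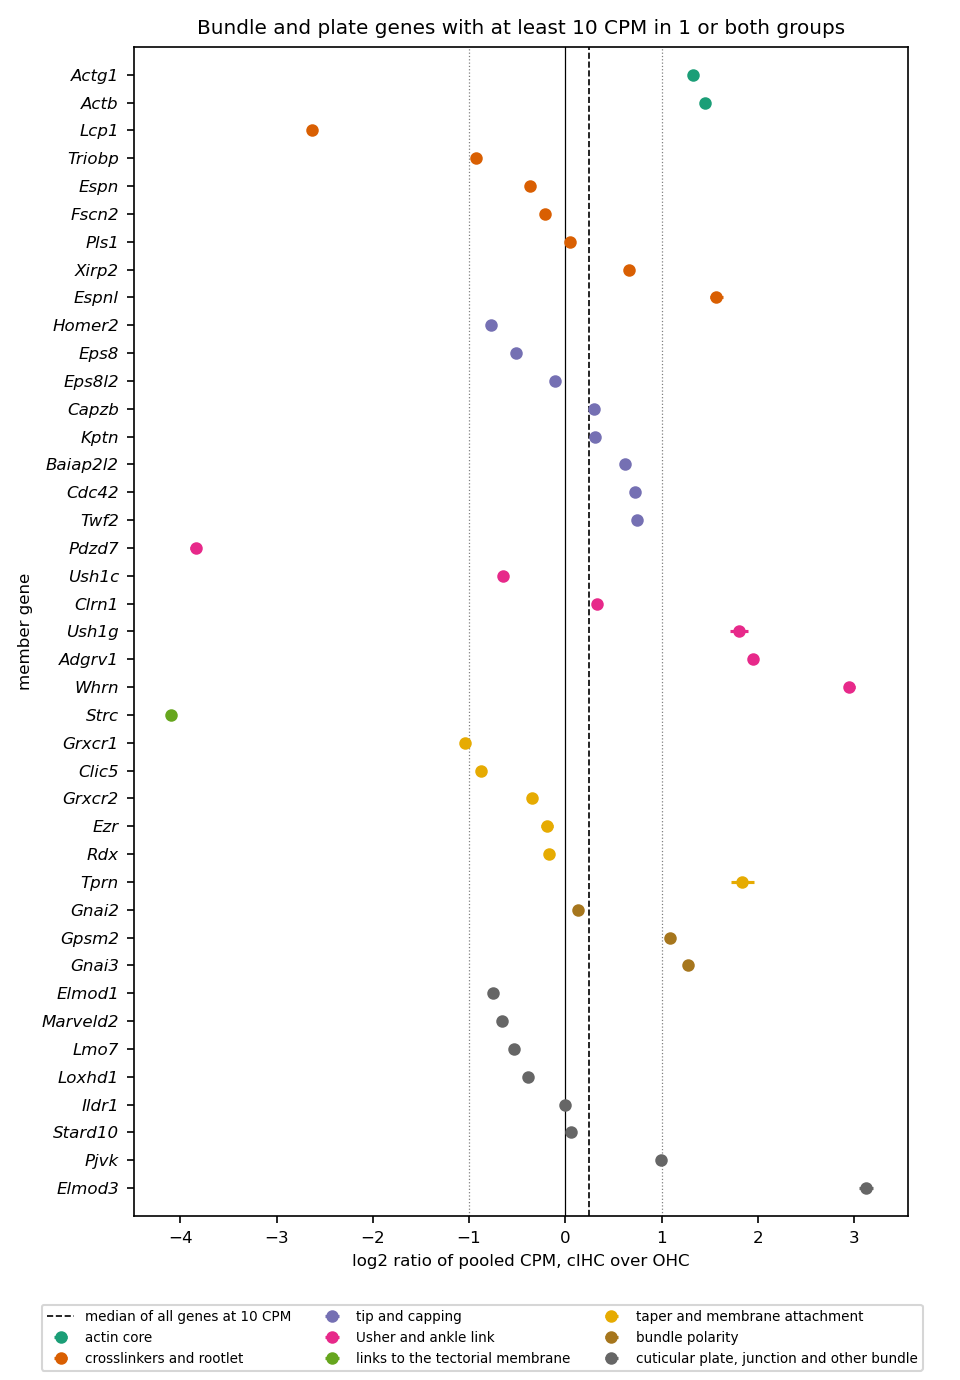
Log2 ratio of pooled CPM, cIHC over OHC, on the horizontal axis for the 41 genes that reach 10 CPM, coloured and ordered by role; bars are exact binomial 95% intervals for counting error, mostly narrower than the points. Dotted lines mark 2-fold and the dashed line the median of all 10041 genes at 0.25; Strc and Pdzd7 lie far to the left and Whrn and Elmod3 far to the right.

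Strc showed the widest separation. It encodes stereocilin, which forms the top connectors between stereocilia and the crown that attaches the tallest OHC stereocilia to the tectorial membrane. In OHCs Strc ranged from 298.5 CPM over a median of 589.6 to 1357 CPM, with reads in all 32 cells. In cIHCs it ranged from 0 over 23.8 to 181.6 CPM, with reads in 55 of 67 cells. Every cIHC lay below the lowest OHC, which was the case for 9 of the 10041 genes, or 0.0896%. The reverse, every cIHC above every OHC, held for 0.0797% of genes and for none of the 49. Pooled, Strc had 633.5 CPM in OHCs against 37.0 in cIHCs, for a log2 ratio of -4.10 (95% interval -4.12 to -4.08). In cells with Y-linked reads the log2 ratio was -3.57 and in cells with Xist reads -4.28. Strc still reached 10 CPM in 42 of 67 cIHCs. Exons of Strc overlap those of Ckmt1 on the opposite strand, a gene with 240.8 CPM in OHCs and 171.1 in cIHCs, and it was not stated whether reads were counted by strand. The other 2 genes of this role, Otoa and Tecta, encode otoancorin and alpha-tectorin, proteins that supporting cells add to the tectorial membrane. Otoa had reads in 0 of 32 OHCs, where a count of 0 leaves room for up to 9.38% of cells, and in 2 of 67 cIHCs, with a highest value of 13.0 CPM. Tecta had reads in 1 OHC and 2 cIHCs, none above 0.678 CPM. Supporting cell and tectorial membrane markers were low in the median cell but not in every cell. The 12 genes summed to a median of 0.127 CPM per OHC (0 to 1662) and 0 per cIHC (0 to 873.4). Pooled, they summed to 59.3 CPM in OHCs and 26.9 in cIHCs. Epyc and Tectb were the 2 that reached 10 CPM, both at least 2-fold lower in cIHCs. Slc1a3 was at 0 in OHCs, and Epyc and Prox1 were at 0 in cIHCs.

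The RNA levels of the Usher and ankle link genes differed in both directions, also among the genes of ankle link proteins. Ankle links join the bases of stereocilia in growing bundles. They contain the adhesion receptor ADGRV1 and are held by the scaffold proteins whirlin and PDZD7. Neither the links nor these proteins were measured in the cells compared here. Whrn, which encodes whirlin, ranged from 0 over a median of 0 to 65.99 CPM in OHCs, with reads in 12 of 32 cells. In cIHCs it ranged from 0 over 75.4 to 475.6 CPM, with reads in 62 of 67 cells. In 39 cIHCs the level was above the highest OHC, and the cIHC was higher in 87.2% of the 2144 pairs of 1 cIHC and 1 OHC. Pooled over cells it was 11.7 CPM in OHCs against 90.4 in cIHCs, for a log2 ratio of 2.95 (2.90 to 3.01). In cells with Xist reads, of which 4 were OHCs, it was 1.18.

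Adgrv1, the receptor, ranged from 0 over 0 to 254.2 CPM in OHCs and from 0 over 75.5 to 332.3 CPM in cIHCs, with reads in 13 and 64 cells. Its pooled levels were 24.4 and 94.3 CPM, a log2 ratio of 1.95 (1.91 to 1.99). A single OHC gave 40.01% of the OHC counts, and with the top cell of each group removed the log2 ratio was 2.59. Pdzd7 went the other way. It ranged from 0 over 19.2 to 322.6 CPM in OHCs and from 0 over 0 to 154.6 CPM in cIHCs, with reads in 25 of 32 OHCs and 11 of 67 cIHCs. The pooled levels were 73.7 and 5.13 CPM, a log2 ratio of -3.84 (-3.90 to -3.79), and the cIHC was higher in 17.2% of pairs. In cells with Y-linked reads the log2 ratio was -4.04. In cells with Xist reads it turned to 7.17, a value that rests on 1 count over 4 OHCs. Exons of Pdzd7 overlap those of Lzts2 on the opposite strand, which had 14.2 and 9.46 CPM. Cell by cell, Whrn and Adgrv1 both reached 10 CPM in 1 of 32 OHCs and in 44 of 67 cIHCs. Pdzd7 reached 10 CPM without Whrn in 13 OHCs and 0 cIHCs, and Whrn without Pdzd7 in 6 OHCs and 47 cIHCs. Where 1 scaffold gene reached this level without the other, it was more often Pdzd7 in OHCs and always Whrn in cIHCs. Taken singly, Whrn reached 10 CPM in 9 OHCs and 55 cIHCs, and Pdzd7 in 16 and 8. The joint counts depend on these single counts, and whether the genes exclude each other within cells was not tested.

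Among the Usher genes of the upper bundle, Ush1c encodes harmonin, the scaffold at the upper tip-link anchor. It had 507.7 and 323.2 CPM, a log2 ratio of -0.65, with reads in all cells of both groups. Ush1g encodes SANS, a partner of harmonin, and had 4.10 and 14.3 CPM with reads in 5 OHCs and 24 cIHCs. Its log2 ratio of 1.80 (1.71 to 1.90) rests on few cells: medians were 0 in both groups, the highest values 70.7 and 207.5 CPM, and in cells with Y-linked reads it turned to -8.78, from 1 count over 12 cIHCs. Clrn1, the gene of clarin-1, had 306.3 and 386.1 CPM, a log2 ratio of 0.33 that was -0.40 among cells with Y-linked reads.

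The upstream sequences of the 4 genes with the widest log2 ratios among those at 10 CPM, Strc and Pdzd7 below and Elmod3 and Whrn above, were read because the cIHCs express a T-box factor. Each is the 250 bases before the gene start in RefSeq (GRCm38.p6), 5' to 3' on the gene's own strand, which is the minus strand for all 4. Capitals mark matches to the T-box core motif TCACACC or its reverse complement GGTGTGA, searched on both strands; the motifs do not overlap each other. The Strc window is chr2:121380941-121381190, the Pdzd7 window chr19:45045773-45046022, the Whrn window chr4:63495992-63496241 and the Elmod3 window, the first of 2 RefSeq starts, chr6:72598414-72598663. For Strc the GENCODE M21 gene model begins further upstream, at position 121387168, so the window lies inside that model.
Strc: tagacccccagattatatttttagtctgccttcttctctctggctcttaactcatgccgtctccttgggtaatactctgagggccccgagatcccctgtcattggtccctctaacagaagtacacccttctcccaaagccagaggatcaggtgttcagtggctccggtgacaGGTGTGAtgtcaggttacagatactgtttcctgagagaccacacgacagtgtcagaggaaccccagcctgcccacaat
Pdzd7: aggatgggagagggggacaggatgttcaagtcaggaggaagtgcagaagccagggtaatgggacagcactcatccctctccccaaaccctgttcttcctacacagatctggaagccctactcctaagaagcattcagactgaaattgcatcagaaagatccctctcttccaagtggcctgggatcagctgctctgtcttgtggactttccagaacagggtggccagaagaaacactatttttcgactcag
Whrn: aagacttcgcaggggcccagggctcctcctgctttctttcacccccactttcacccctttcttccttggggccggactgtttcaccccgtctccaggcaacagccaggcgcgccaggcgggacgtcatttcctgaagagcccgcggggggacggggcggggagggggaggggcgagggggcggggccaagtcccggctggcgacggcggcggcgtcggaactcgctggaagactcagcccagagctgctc
Elmod3: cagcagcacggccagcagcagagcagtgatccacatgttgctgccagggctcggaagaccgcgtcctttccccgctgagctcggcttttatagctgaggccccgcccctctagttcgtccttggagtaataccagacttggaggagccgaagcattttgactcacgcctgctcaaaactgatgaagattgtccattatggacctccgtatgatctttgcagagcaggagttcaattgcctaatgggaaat
The Strc window held 1 match, with its first base 78 bases before the start, and the other windows held 0. Over the 40 of 49 genes with an entry, 4 windows held a match (Capzb, Stard10, Strc and Xirp2), or 10%, beside 1039 of 27025 genes, or 3.84%. Of the 12 genes with an entry that differed at least 2-fold, Strc alone held one. A match is a run of letters in this window and no evidence of binding.

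**Figure D2:**
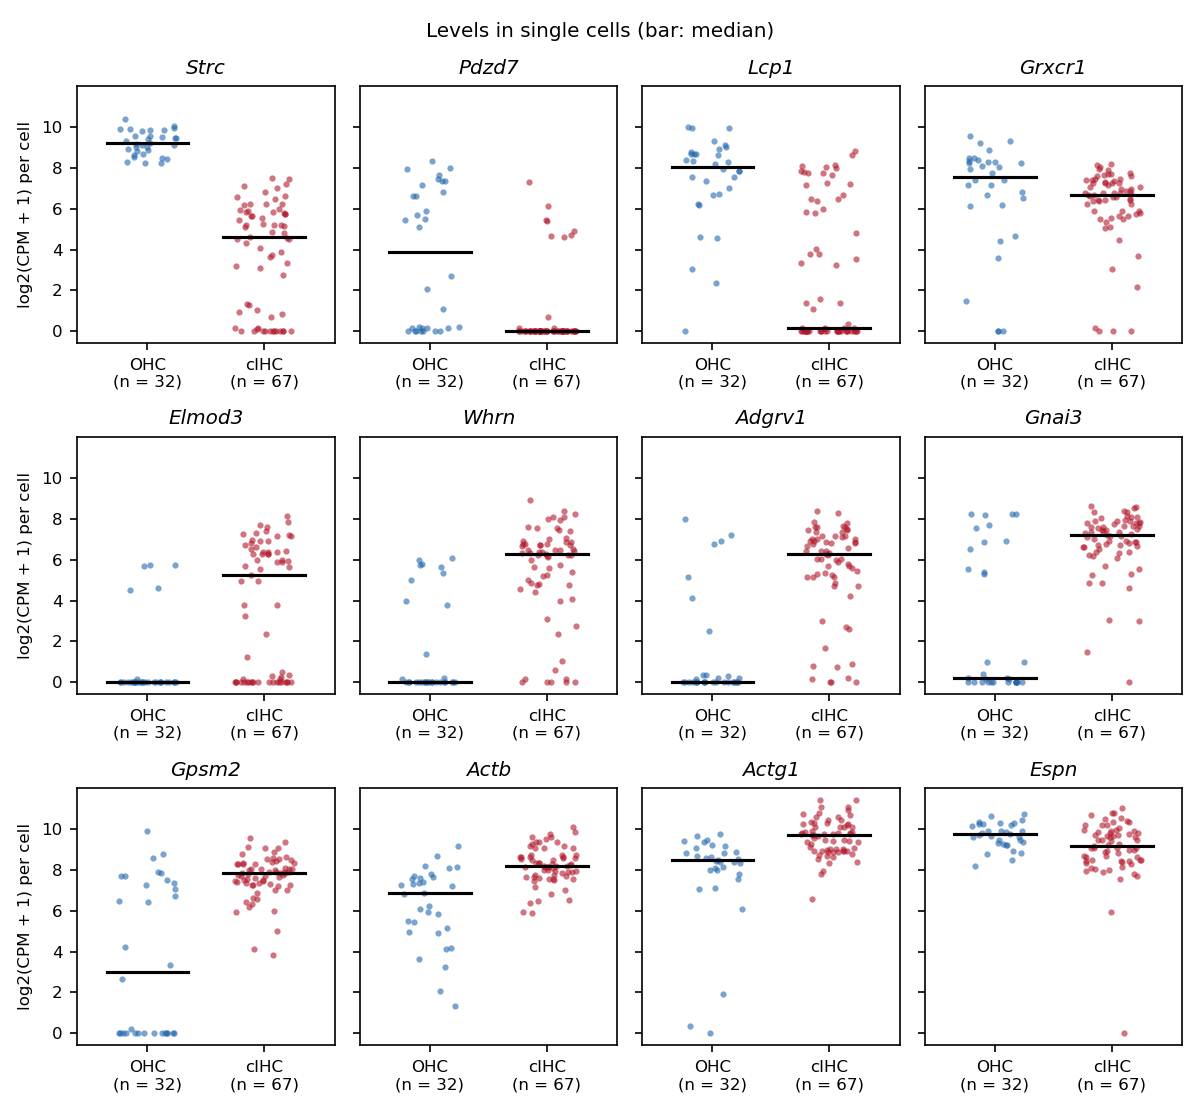
Level of 12 genes in every cell as log2(CPM + 1), OHCs (n = 32) in blue and cIHCs (n = 67) in red, with the median as a bar. Strc has no cIHC at the height of the lowest OHC, and Whrn, Adgrv1 and Elmod3 are near 0 in most OHCs. Gpsm2 and Gnai3 have reads in some OHCs and none in others.

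Both actin genes were higher in cIHCs. Stereocilia are built from beta-actin and gamma-actin, which Actb and Actg1 encode. Actb ranged from 1.54 over a median of 113.5 to 564.1 CPM in OHCs and from 57.2 over 292.6 to 1095 CPM in cIHCs. Actg1 ranged from 0 over 351.1 to 857.9 CPM in OHCs and from 93.5 over 826.2 to 2750 CPM in cIHCs, with 30 cIHCs above the highest OHC. The ranges overlapped for both genes, and the cIHC was higher in 85.1% of pairs for each. The pooled levels were 131.0 and 357.5 CPM for Actb, a log2 ratio of 1.45, and 370.9 and 931.3 CPM for Actg1, a log2 ratio of 1.33. Neither ratio fell below 1 in any of the 11 other settings, with ranges of 1.26 to 1.87 for Actb and 1.03 to 1.79 for Actg1. The balance between the actins differed little: per kilobase (kb) of exon, Actg1 made up 74.1% of the 2 in OHCs and 72.4% in cIHCs.

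Most crosslinkers lay within 2-fold, apart from Lcp1 and Espnl. Espn encodes espin, a main bundler of the parallel filaments. It ranged from 291.5 over 849.4 to 1698 CPM in OHCs and from 0 over 569.9 to 2055 CPM in cIHCs, with pooled levels of 887.7 and 687.1 CPM and a log2 ratio of -0.37. Fscn2, the gene of fascin 2, had pooled levels of 312.8 and 271.3 CPM, with medians of 238.8 and 239.3 CPM. The log2 ratio of Fscn2 was -0.21 over all cells, -0.74 among cells with Y-linked reads and 0.89 among cells with Xist reads. Its paralog Fscn1 stayed under 10 CPM, with reads in 2 cells of each group and highest values of 17.8 and 12.5 CPM. Pls1 encodes plastin 1, and its pooled levels of 599.2 and 619.1 CPM gave a log2 ratio of 0.05, with reads in every cell. Pls3 had reads in 1 OHC and 4 cIHCs.

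Lcp1, the gene of plastin 2, which is also called L-plastin and is abundant in leukocytes, was the crosslinker that differed most. In OHCs it ranged from 0 over 266.0 to 1009 CPM, with reads in 31 of 32 cells and 7 cells above the highest cIHC. In cIHCs it ranged from 0 over 0.119 to 447.4 CPM, with reads in 38 of 67 cells. The pooled levels were 324.5 and 52.5 CPM, a log2 ratio of -2.63 (-2.65 to -2.61), with the cIHC higher in 13.9% of pairs. Among cells with Y-linked reads it was -1.36 and among cells with Xist reads -3.51. Of the 10 macrophage and leukocyte markers, Laptm5 had 81.3 CPM in pooled OHCs and 0.00184 in cIHCs, and C1qb had 0 and 48.2 CPM. These were the only 2 of the 10 to reach 10 CPM in a group, so the rest are low by selection. The other 8 markers summed to 0.347 CPM in OHCs and 0.763 in cIHCs, and no OHC had more than 5.74 CPM of them. The part of Laptm5-bearing RNA in the Lcp1 ratio was not tested. In OHCs C1qa, C1qb and Cx3cr1 were at 0, and in cIHCs C1qa, C1qc, Cx3cr1, Tyrobp and Lyz2 were. Per kb of exon, Pls1 was 81.4% and Lcp1 18.04% of the 3 plastins in OHCs, and 96.3% and 3.34% in cIHCs. With the longest transcript in place of all exons, Lcp1 was 34.1% and 7.52%.

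Espnl, the espin-like gene, was at least 2-fold higher in cIHCs, with pooled levels of 7.60 and 22.5 CPM, a log2 ratio of 1.57 and reads in 7 of 32 OHCs and 43 of 67 cIHCs. It ranged from 0 over 0 to 98.2 CPM in OHCs and from 0 over 2.83 to 139.1 CPM in cIHCs. A single OHC gave 45.02% of its OHC counts, the ratio was 2.28 with the top cell of each group removed, and it turned to -0.36 among cells with Xist reads, where 2 of 4 OHCs held its reads. Per kb of exon Espnl was 1.28% of the espin pair in OHCs and 4.75% in cIHCs, so Espn remained the main transcript of the pair in both. Xirp2, which encodes an actin-binding repeat protein of the stereocilia core, had 268.7 and 424.4 CPM, with reads in 28 of 32 OHCs and all cIHCs, and a log2 ratio of 0.66 (1.07 among cells with Xist reads). Triobp, whose product bundles the rootlet filaments, had 752.9 and 394.7 CPM, a log2 ratio of -0.93 that passed 2-fold in 3 of the 11 other settings (-1.16 to -0.76).

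By pooled level none of the 8 tip and capping genes differed 2-fold. Of all genes at 10 CPM, 26.3% were at least 2-fold higher and 14.3% at least 2-fold lower. The log2 ratios of the tip and capping genes ran from -0.77 to 0.75. Their summed level had a median of 2072 CPM per OHC (1150 to 3548) and 2101 per cIHC (1185 to 3327). Twf2, the gene of twinfilin 2, which caps barbed ends in the shorter stereocilia, had the highest ratio of this role. It ranged from 0.133 over 397.2 to 939.0 CPM in OHCs and from 197.7 over 624.3 to 1513 CPM in cIHCs, and pooled levels of 419.1 and 706.1 CPM gave a log2 ratio of 0.75. Cdc42, the gene of a small GTPase of actin assembly, had 265.6 and 437.2 CPM, and Baiap2l2, which acts at the tips of the transducing rows, had 36.9 and 56.8. Medians of Baiap2l2 were 0.605 and 47.2 CPM, and its ratio passed 2-fold with medians per cell. It reached 10 CPM in 10 of 32 OHCs and 55 of 67 cIHCs. The capping subunit gene Capzb had 171.2 and 210.7 CPM and the kaptin gene Kptn 31.4 and 38.9. At the other end was Homer2, the gene of a scaffold protein, with 833.5 and 488.9 CPM and the cIHC higher in 17.9% of pairs; its log2 ratio was -1.44 among cells with Y-linked reads. The ratio of Kptn was 1.09 with the top cell of each group removed and 2.76 among cells with Xist reads, where that of Baiap2l2 was 10.63; there 2 of 4 OHCs had reads of Kptn and 1 of 4 had a read of Baiap2l2. The elongation factor gene Eps8 had no steady direction. It had 31.3 and 22.02 CPM, with medians of 0 and 2.89 and highest values of 273.6 and 189.8, and its log2 ratio of -0.51 was -1.16 among cells with Y-linked reads and 1.22 among cells with Xist reads. Its relative Eps8l2 had 260.7 and 240.8 CPM, with medians of 227.8 and 223.1 and a log2 ratio of -0.11. Per kb Eps8l2 was 95.03% of the pair in OHCs and 96.2% in cIHCs.

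Of the 6 taper and membrane genes at 10 CPM, 5 had pooled levels in cIHCs below those of OHCs, by 2-fold only for Grxcr1. Over all genes at 10 CPM the median log2 ratio was 0.25, and 14.3% were at least 2-fold lower. Grxcr2 encodes a cysteine-rich protein of the stereocilia base that is needed for bundle shape. It ranged from 490.0 over 1324 to 3124 CPM in OHCs and from 403.5 over 1120.2 to 2197 CPM in cIHCs, with pooled levels of 1407 and 1105 CPM. Its relative Grxcr1 ranged from 0 over 189.6 to 757.4 CPM in OHCs and from 0 over 101.4 to 290.0 CPM in cIHCs, and 12 OHCs lay above the highest cIHC. The pooled levels were 223.4 and 108.7 CPM, a log2 ratio of -1.04 that lay within 2-fold in 6 of the 11 other settings (-1.23 to -0.80). Clic5, the gene of a chloride-channel family protein at the taper, had 161.1 and 87.4 CPM, a log2 ratio of -0.88 (-1.07 with TMM). Its partner gene Rdx encodes radixin, which ties actin to the membrane; it had 172.5 and 152.9 CPM with medians of 164.9 and 128.4, and a log2 ratio of -0.17 (-1.04 among cells with Xist reads). Of the radixin relatives, Ezr had 14.8 and 13.0 CPM with reads in 8 OHCs and 19 cIHCs and a log2 ratio that ran from 1.53 among cells with Y-linked reads to -2.47 among cells with Xist reads, and Msn had 3 counts in each whole group. Rdx was 89.2% of the ezrin, radixin and moesin transcripts per kb in OHCs and 89.3% in cIHCs, over all cells. Tprn, the gene of taperin, was the exception to the direction, with pooled levels of 2.81 and 10.1 CPM and a log2 ratio of 1.84 (1.72 to 1.96). It had reads in 5 OHCs and 24 cIHCs, medians of 0 in both groups and highest values of 40.3 and 187.8 CPM, and its ratio was 0.81 among cells with Xist reads.

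The polarity genes Gpsm2 and Gnai3 were higher in cIHCs. Their products, LGN and an inhibitory G protein alpha subunit, mark the bare zone beside the bundle and the tips of its tallest row. Gpsm2 ranged from 0 over 7.31 to 961.9 CPM in OHCs, with reads in 18 of 32 cells, and from 13.2 over 226.9 to 761.6 CPM in cIHCs, with reads in all 67. The pooled levels were 112.5 and 240.3 CPM, a log2 ratio of 1.09 (1.08 to 1.11), which was 0.90 with the TMM factor and 1.39 with the top cell of each group removed. Gnai3 ranged from 0 over 0.158 to 301.7 CPM in OHCs and from 0 over 148.0 to 396.6 CPM in cIHCs, with reads in 19 and 66 cells. Its pooled levels were 64.6 and 155.7 CPM, a log2 ratio of 1.27 (1.24 to 1.29). Gpsm2 reached 10 CPM in 15 of 32 OHCs and Gnai3 in 12, and both genes did in 6 of 32 OHCs and 63 of 67 cIHCs. A cell without reads may still hold the transcript, and fewer genes had reads per OHC. Whether OHCs form separate classes by these genes was not tested. Exons of Gpsm2 overlap those of Clcc1 on the opposite strand, which had 67.2 and 53.4 CPM. Gnai2, by contrast, ranged from 0 over 175.4 to 347.8 CPM in OHCs and from 3.00 over 155.2 to 464.9 in cIHCs, with pooled levels of 153.9 and 168.1 CPM. The log2 ratio of Gnai2 was 0.13 over all cells, 0.41 among cells with Y-linked reads and -0.56 among cells with Xist reads. Per kb, Gnai3 was 32.7% of the Gnai2 and Gnai3 transcripts in OHCs and 51.8% in cIHCs, or 22.2% and 38.6% with the longest transcript of each. Per cell this share had a median of 0.171% in OHCs (0 to 100) and 52.4% in cIHCs (0 to 98.7). Gnai1 had reads in 0 OHCs and 7 cIHCs and reached 3.88 pooled CPM, with a highest value of 85.7 CPM.

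**Figure D3:**
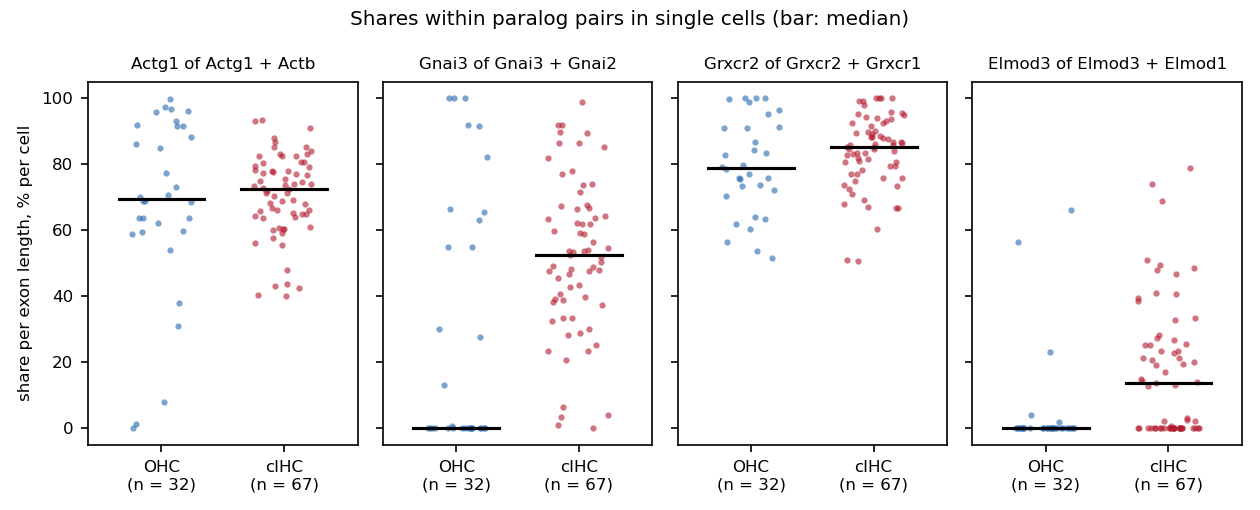
Share of 1 paralog in the summed level of a pair per kb of exon, in percent, for each OHC (n = 32) and cIHC (n = 67), with the median as a bar. The Actg1 share has medians of 69.4% and 72.5%, while the median Gnai3 share moves from 0.171% to 52.4% and the median Elmod3 share from 0% to 13.85%. Single OHCs have Gnai3 shares from 0 to 100%. Pooled over cells, the Gnai3 share was 32.7% in OHCs and 51.8% in cIHCs, and the Elmod3 share 1.61% and 19.3%.

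Among the cuticular plate, junction and other bundle genes, 1 of 8 at 10 CPM differed 2-fold in pooled level. Of all genes at 10 CPM, 26.3% were at least 2-fold higher and 14.3% at least 2-fold lower. Elmod3, which encodes a regulator of small GTPases, ranged from 0 over 0 to 52.2 CPM in OHCs and from 0 over 36.6 to 282.7 CPM in cIHCs, with reads in 6 of 32 and 47 of 67 cells. In 30 cIHCs it was above the highest OHC. The pooled levels were 6.44 and 56.1 CPM, a log2 ratio of 3.12 (3.05 to 3.20) that ran from 2.91 to 3.44 in the other settings. Its relative Elmod1, a regulator of the same kind, had 491.2 and 291.4 CPM, with medians of 457.7 and 295.2 and a log2 ratio of -0.75 (-1.22 among cells with Xist reads). Elmod3 was 1.61% of the pair per kb in OHCs and 19.3% in cIHCs, so Elmod1 remained the larger part.

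Lmo7, whose product organises the cuticular plate, had pooled levels of 1604 and 1110 CPM, and 12 OHCs lay above the highest cIHC. Stard10, a gene of a lipid transfer domain protein, ranged from 206.3 over 850.5 to 1677 CPM in OHCs and from 78.6 over 1046 to 2194 CPM in cIHCs, with pooled levels of 922.3 and 964.6 CPM. Pjvk encodes pejvakin, which is found at the rootlet and at peroxisomes. It ranged from 0 over 223.1 to 1015 CPM in OHCs and from 90.4 over 553.2 to 1204 CPM in cIHCs, and its log2 ratio of 0.99 between pooled levels of 295.9 and 586.3 CPM passed 1 in 5 of the 11 other settings. Loxhd1, the gene of a protein of the stereocilia membrane, had 504.7 and 386.4 CPM. The tricellular junction genes Marveld2 and Ildr1 had pooled levels of 85.0 and 53.7 CPM, and 68.5 and 68.4 CPM. Their medians over cells were higher in cIHCs, with 11.8 and 41.2 CPM for Marveld2 and 2.985 and 49.1 for Ildr1. Reads of Marveld2 were found in 21 of 32 OHCs and 54 of 67 cIHCs, and reads of Ildr1 in 19 and 58. With medians per cell the log2 ratios were 1.80 and 4.04, against -0.66 and -0.00 when pooled. Tmc7 had 1 count in all OHCs and 0 in all cIHCs. Lhfpl3 had reads in 0 OHCs and 3 cIHCs, and its exons overlap those of A930003O13Rik on the opposite strand, which had 0.00826 and 3.43 CPM.

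Per kb of exon, Grxcr2, Stard10, Pjvk and Twf2 were among the 5 highest of the 49 genes in both groups. In OHCs it was Grxcr2 with 704.4 CPM per kb, Stard10 with 381.3, Pjvk with 216.9, Grxcr1 with 208.6 and Twf2 with 180.7. In cIHCs it was Grxcr2 with 552.9, Pjvk with 429.8, Stard10 with 398.8, Actg1 with 350.4 and Twf2 with 304.5. The single-cell ranges of neighbours in these orders overlapped. Actg1 moved from place 8 to 4, Actb from 20 to 8, Cdc42 from 14 to 7 and Gpsm2 from 25 to 17, while Strc moved from 13 to 33, Lcp1 from 24 to 34, Pdzd7 from 30 to 41 and Grxcr1 from 4 to 10. With the longest transcript as the length, Grxcr2 and Stard10 were first and second in OHCs and exchanged places in cIHCs.

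**Figure D4:**
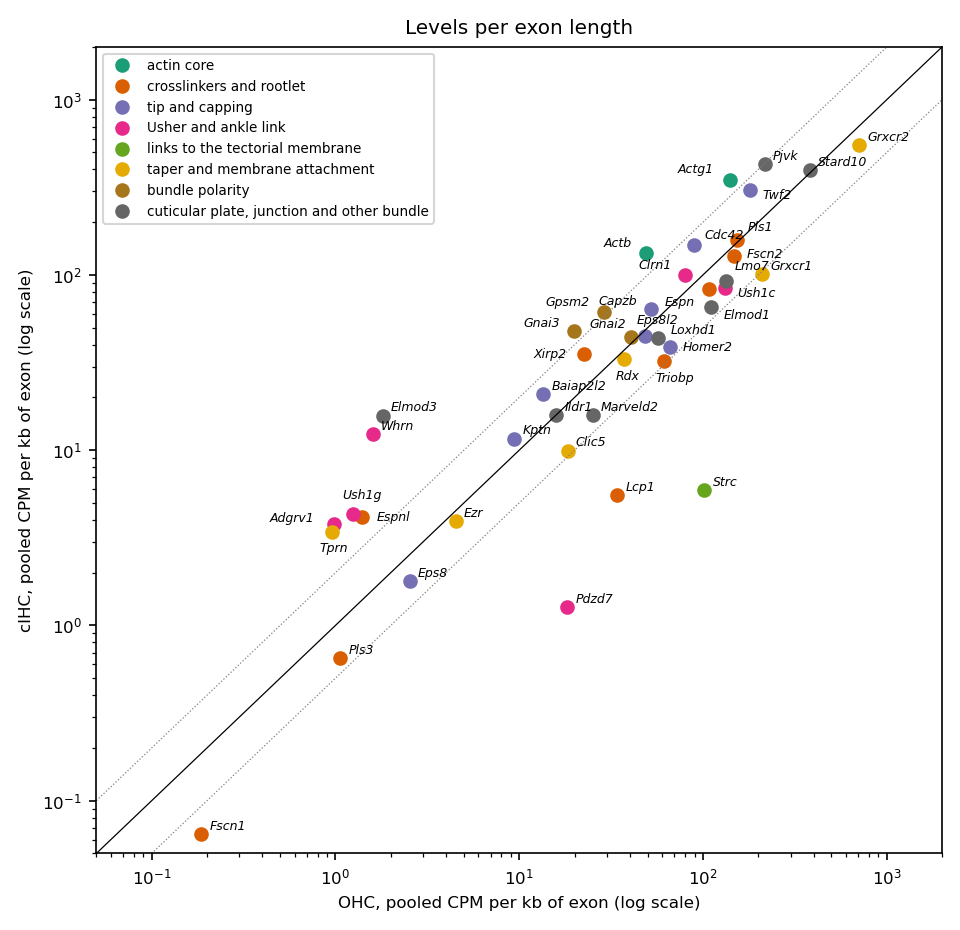
Pooled CPM per kb of exon in OHCs (horizontal) and cIHCs (vertical), both on log scales, for the 43 genes above 0.05 CPM per kb in both groups, coloured by role; the solid line marks equality and dotted lines 2-fold. Strc (101.7 and 5.94 CPM per kb) and Pdzd7 lie farthest below the line, and Elmod3 and Whrn, both under 2 CPM per kb in OHCs, farthest above it.

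Cell-to-cell spread was lower in cIHCs for 30 of the 41 genes. The median coefficient of variation was 87.6% in OHCs and 65.4% in cIHCs. Over the 9772 genes at 10 CPM with reads in both groups the medians were 190.4% and 122.2%, and 85.2% of genes had the lower spread in cIHCs, beside 73.2% of the 41. Among the 41 genes, 15 had reads in every OHC, 20 in every cIHC and 13 in every cell of both. A median under 10 CPM was found for 13 of the 41 in OHCs and 8 in cIHCs, and 8 of the 10 genes that were at least 2-fold higher in cIHCs had such a median in OHCs. The matching shares of all genes were not counted. Over all genes, reads were found for fewer genes per OHC than per cIHC (medians of 6068.5 and 8546). These counts are thus not shown to be particular to the 41 genes.

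Within the groups, ranks of level were compared between cells for the 21 genes found in 90% or more of the cells of each group. Over the 210 pairs of genes the median Spearman rho was 0.03 across 32 OHCs and 0.04 across 67 cIHCs. The points of each correlation share the total of a cell, so CPM values are not independent of each other. The highest values in OHCs were 0.46 for Pls1 and Gnai2, 0.41 for Cdc42 and Clic5, and 0.37 for Pls1 and Clic5; in cIHCs the same pairs had 0.08, 0.02 and 0.05. In cIHCs the highest pairs all held Espn: 0.63 with Stard10, 0.61 with Homer2 and 0.60 with Ush1c, which had 0.01, 0.10 and 0.18 in OHCs. Espn also had 0.55 with Triobp, 0.51 with Eps8l2 and 0.48 with Fscn2 in cIHCs. The synaptic gene Otof, which is not among the bundle genes, ranked with several of them in cIHCs. It had 0.68 with Espn, 0.66 with Stard10, 0.57 with Homer2, 0.45 with Ush1c and 0.34 with Triobp. These positive values are thus not particular to bundle genes. Across the cIHCs the ranks of Tbx2 went against those of Espn (-0.51), Stard10 (-0.50), Homer2 (-0.45), Ush1c (-0.39) and Triobp (-0.36), and with those of Pls1 (0.49) and Actg1 (0.46). Tbx2 also had -0.61 with the mitochondrial share of counts, 0.30 with the number of genes with reads and 0.32 with the total count, and the part of these in the relation was not tested. The number of genes with reads had -0.33 with Espn, -0.50 with Stard10, -0.36 with Homer2, -0.33 with Triobp and -0.18 with Ush1c, and the total count had -0.20 with Espn and -0.45 with Stard10. With the mitochondrial share Espn had 0.20 and Stard10 0.54. Actg1 had -0.48 with the mitochondrial share and 0.37 with the number of genes with reads, and Pls1 had -0.28 and 0.13.

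**Figure D5:**
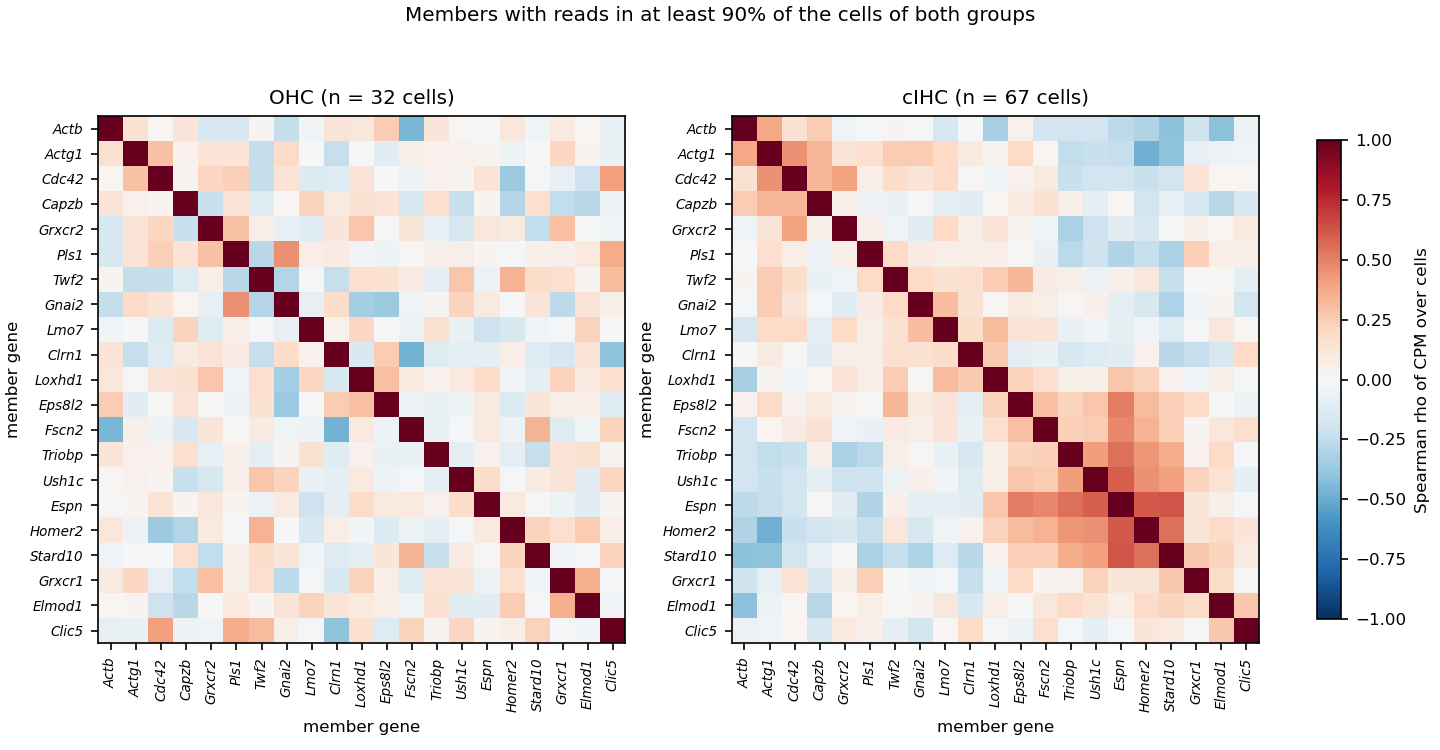
Spearman rho of CPM over cells, from -1 (blue) to 1 (red), for each pair of the 21 genes found in 90% or more of the cells of both groups, in OHCs (left, n = 32) and cIHCs (right, n = 67), with both axes in the same gene order. A block of positive values around Espn, Homer2, Stard10, Ush1c and Triobp is seen in cIHCs, where Espn and Stard10 have 0.63. OHCs show no such block. Otof, which is not a bundle gene and is not drawn, had 0.68 with Espn and 0.66 with Stard10 in cIHCs.

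Other genes of the hair bundle and of cell polarity were measured for the same comparison. Of 23 listed, 19 were at 10 CPM, of which 3 were at least 2-fold higher in cIHCs, 6 at least 2-fold lower and 10 within 2-fold, beside 26.3% and 14.3% of all genes, with a median log2 ratio of -0.18. The highest were Vezt, the gene of the junction protein vezatin, with 6.46 and 58.1 CPM, a log2 ratio of 3.17, Vangl2, a core planar polarity gene, with 7.30 and 36.7 CPM and 2.33, and Insc, the gene of an LGN partner, with 41.5 and 154.4 CPM and 1.89. Among the lowest were Ccdc88c, with 40.9 and 9.06 CPM and -2.17, and Pak1, the gene of a kinase downstream of small GTPases, with 79.7 and 27.9 CPM and -1.51. Insc had reads in 15 of 32 OHCs and 61 of 67 cIHCs, and was thus high in the same group as its partner Gpsm2.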

How the data were processed

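Read counts per gene were measured in single mouse cochlear hair cells, 32 OHCs and 67 cIHCs, named and grouped by the titles in the labels. The counts deposited by the authors are whole numbers for 55291 gene symbols in 1 table; 28509 symbols had no read. Per the submitters' processing notes, the build was mm10 and the tools were HISAT2 2.2.1, StringTie 2.2.1 and featureCounts 2.0.1; annotation, strand and multiple-mapping settings are not given in the sources used here. Per the labels' protocols, the cells picked are also called endogenous IHCs and iOHCs; the titles were followed. Cells mentioned from an earlier study were not analysed here. All 99 cells were used, and 0 pairs of cells held identical counts. The amplified reads carry no molecular identifiers, so copies of the same molecule are counted as separate reads. Intervals cover the counting error of reads only and can be narrower than the error in counting transcripts.

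Counts were summed per group and divided by the summed totals to give pooled CPM. Log2 ratios compare cIHC with OHC and carry exact conditional binomial 95% intervals. Genes that reached 10 CPM in either group were counted as higher or lower from a log2 ratio of 1. A sum of 0 was set to 3 counts, and no ratio was taken where both sums were at most 3. For 0 of n cells the limit is 3 of n. Exon lengths and overlaps came from GENCODE M21, which holds 96.4% of the symbols and all 49 genes; it need not be the authors' annotation, and 14 of the 49 overlap another gene's exons. Upstream sequences came from RefSeq. Named genes are those past 2-fold, those with a paralog among the 49, and the 5 highest per kb, with the 3 highest and 3 lowest of each other list. The 49 genes, the lists and the motif were chosen with earlier results of these data known. Some listed genes are part of their list's counts but are not reported here by name. Other settings were means or medians of CPM over cells, leaving out the highest cell, edgeR 4.0.16 TMM factors, median-of-ratios scaling on 589 genes, totals without mitochondrial or the 10 most abundant genes, cells with Y-linked or Xist reads, cells without the lowest 10% by genes, cells thinned to 5770000 reads, and other minimum levels. On simulated counts for 9172 genes, 99% of 200 changed genes and 0% of the unchanged ones were past 2-fold. These shares belong only to the effect sizes and the spread that were put into those counts. In the measured cells the median coefficient of variation was 190.4% in OHCs and 122.2% in cIHCs, over 9772 genes. Whether the shares hold at this cell-to-cell spread, for smaller effects or between animals was not tested. Python 3.11.15, scipy 1.17.1 and R 4.3.3 were used.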

Additional observations from a re-analysis of the deposited data

How the results depend on the processing

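The median log2 ratio of the 49 genes moved with the scaling, and so did that of all genes. From 0.05 it went to -0.03 with medians per cell (31 genes), 0.10 without the highest cell of each gene, -0.17 with TMM, 0.25 with median-of-ratios scaling, 0.00 without mitochondrial genes, -0.03 without the most abundant genes, -0.03 in cells with Y-linked reads, 0.20 in cells with Xist reads, 0.08 without cells with few genes, 0.02 in thinned cells, 0.06 with no minimum level and -0.00 with a minimum of 50 CPM. The median of all genes moved by -0.22 with TMM and 0.19 with median-of-ratios scaling. Between 7 and 14 genes were at least 2-fold higher, and between 3 and 6 lower, under these settings. Of the 14 genes past 2-fold, Actb, Actg1, Lcp1, Whrn, Adgrv1, Strc, Gnai3 and Elmod3 kept direction and stayed past 2-fold in each setting that gave a ratio. Direction turned for Espnl (-0.36) and Pdzd7 (7.17) in cells with Xist reads and for Ush1g (-8.78) in cells with Y-linked reads. Relative to a paralog, it turned in cells with Xist reads for Espnl over Espn (-0.40), Fscn2 over Fscn1 (-0.24), Pls1 over Pls3 (-5.18) and Eps8l2 over Eps8 (-0.91). Pls1 over Pls3 also turned without the highest cell (-6.55), Eps8l2 over Eps8 also turned without cells with few genes (-0.10), and Rdx over Ezr, at 0.02, took the other sign in 5 settings, down to -2.25 in cells with Y-linked reads. These settings hold 4 OHCs with Xist and 12 cIHCs with Y-linked reads. No paired analysis was possible because the cell numbers only count cells and no test was made. With 1 sample per group, spread between animals is unknown.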

Other observations

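General regulators of actin, which act throughout the cell, were also measured. Of 35 listed, 30 were at 10 CPM, of which 7 were at least 2-fold higher in cIHCs, 3 at least 2-fold lower and 20 within 2-fold, beside 26.3% and 14.3% of all genes, with a median log2 ratio of 0.33 beside 0.25 for all genes. The highest were Tpm4, a tropomyosin gene, at 3.14, with reads in 2 OHCs and 20 cIHCs, Twf1 at 2.21, and Pfn2, a profilin gene, at 1.78. Twf1 encodes twinfilin 1, the relative of the tip protein gene Twf2. It had reads in every cell, medians of 93.5 CPM in OHCs and 533.5 in cIHCs, pooled levels of 126.0 and 583.4 CPM, and was higher in the cIHC in 95.7% of pairs, while Twf2 had a log2 ratio of 0.75. The lowest were Vasp at -2.69, Actn1, the gene of an alpha-actinin crosslinker, at -2.13 and the filamin gene Flna at -1.03. Actn1 had medians of 56 and 9.95 CPM and reads in 30 of 32 OHCs and 55 of 67 cIHCs.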
